A study of Mus musculus with 14 samples.

Results

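The 31 genes described here encode the semaphorins, their plexin receptors and the neuropilin co-receptors, and were chosen by their GENCODE mouse symbols (Sema3 to Sema7, Plxna to Plxnd, Nrp1 and Nrp2). They comprise 20 semaphorins, 9 plexins and 2 neuropilins among 21631 protein-coding genes and 56980 gene IDs in the counts. Their mRNA was measured by bulk RNA-seq of whole kidneys from 14 wild-type females of the outbred CD-1 strain, aged 18 weeks. Term diabetic mice (T-D, n = 4) had received streptozotocin (STZ), a drug toxic to the insulin-producing beta cells, and term nondiabetic mice (T-ND, n = 4) had not. By the study's methods, mice were also injected with cationic ferritin for imaging before the kidneys were taken. Preterm nondiabetic mice (PT-ND, n = 3) and preterm diabetic mice (PT-D, n = 3, with STZ) had been delivered early by Caesarean section. The preterm pups were also raised by foster mothers that drank a sedative, which cannot be told apart from the early birth in these comparisons. Some PT-D mice of the cohort had a repeat course of STZ, and the labels do not tie it to libraries.

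Semaphorins are guidance cues that are secreted (class 3) or held at the cell membrane (classes 4 to 7), and plexins are the transmembrane receptors that pass their signal to small GTPases and the cytoskeleton. Most class 3 semaphorins cannot bind plexins well by themselves and use Nrp1 or Nrp2, which also bind vascular endothelial growth factor (VEGF) and work with its receptors. In the kidney these genes are known for the patterning of vessels and ureteric branches and for signalling between podocytes and the glomerular endothelium.

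The libraries held 16697246 to 28673176 counts on genes. All 31 members passed the filter of more than 10 counts over the 14 libraries, with totals of 31 (Plxnb3) to 63070 (Plxnb2). T-D replicate 4 stood apart from the other T-D libraries: it had the fewest genes with a count (19589) and the lowest T-D value of 24 of 31 members (77.4%, against 30.6% of all genes). The PT-D libraries had the most genes with a count (21632, 22818 and 22814, against at most 21586 in the other groups). The part of this in the differences of PT-D was not tested. The names of 5 of 14 libraries (2 of T-ND, namely replicates 1 and 2, and 1 of each other group, namely T-D 1, PT-ND 2 and PT-D 1) end in the letter a, which the labels do not explain. Normalised counts below are scaled to the mean library size. Where nothing else is stated, values in a list follow the replicate numbers, so that the fourth T-D value is T-D replicate 4.

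Plexin-B2 was the most abundant transcript of the family per length. Levels are given as RPKM, normalised reads scaled to library size and exon length, averaged over the 14 libraries. Plxnb2, a receptor of class 4 semaphorins, stood at 26.8 RPKM, against a median of 0.946 over the 22171 genes with a length. The ligands Sema4a (13.6), Sema3g (13.5), Sema3b (12.8) and Sema7a (10.4) followed. Sema4a and Sema3g, as neighbours in this order, were close on average, with group means of 12.3 to 16.3 RPKM for Sema4a and 9.54 to 21.8 RPKM for Sema3g. Their order was not the same in each group. In PT-D Sema3g stood at 21.8 ± 3.53 RPKM (SD, n = 3) and Sema4a at 12.3 ± 1.38, without overlap. A mean of 5 RPKM or more was reached by 9 members and 1 RPKM or more by 18. The lowest were Sema4f (0.0207) and Plxnb3 (0.0176), which with Sema5b were at 0 counts in at least 1 library, so that a fold change of these 3 genes rests on few reads. Of the neuropilins, Nrp2 averaged 2.81 RPKM and Nrp1 1.68 RPKM. In PT-D kidneys the order of the 2 closed up, with 3.67 ± 0.86 RPKM (SD, n = 3) for Nrp2 and 3.18 ± 0.75 for Nrp1, a gap within their spread.

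**Figure D1:**
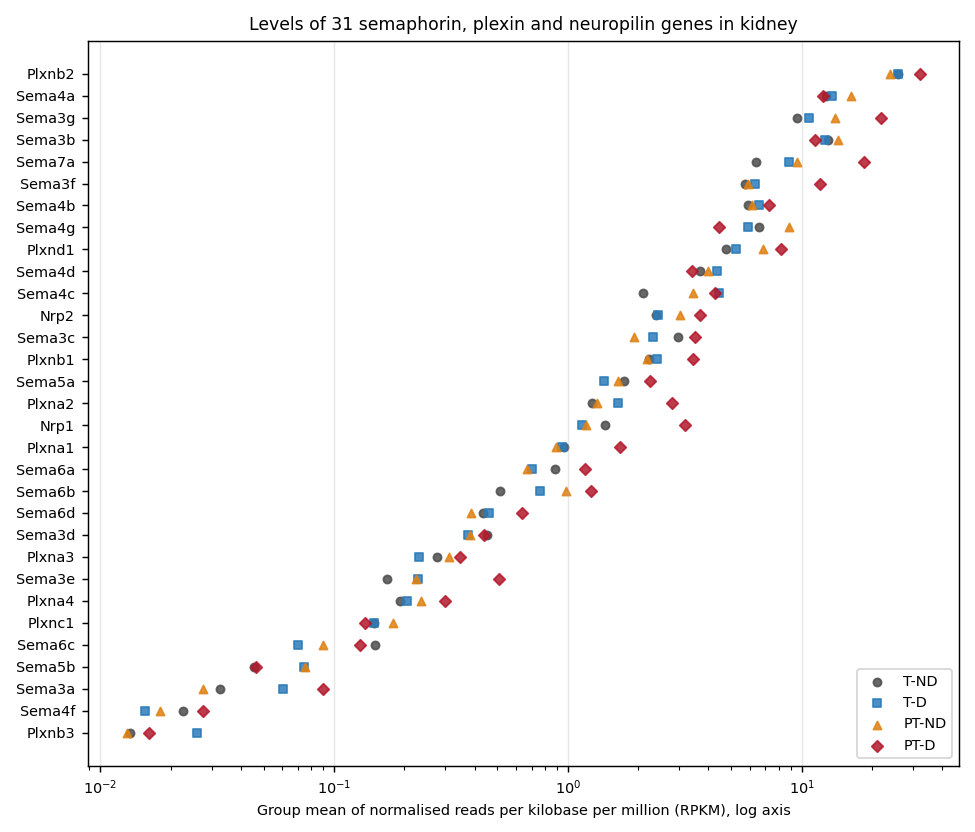
Group means of the level per length (RPKM, log axis) for the 31 members, ordered by their mean over all libraries, with a symbol for each of T-ND, T-D, PT-ND and PT-D. Plxnb2 is highest at 26.8 RPKM on average and Plxnb3 lowest at 0.0176, and the PT-D diamonds of Sema3g, Sema7a, Sema3f, Plxna2, Nrp1, Plxna1 and Sema3e lie to the right of the other groups.

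In PT-D against T-ND, which joins preterm birth and diabetes, transcripts of 3 of 7 secreted class 3 semaphorins and of 4 of 11 receptors and co-receptors were more abundant. The class 3 ligands Sema3e, Sema3f and Sema3g rose, as did the membrane ligand Sema6b, the receptor Plxna2 and the co-receptor Nrp1, with log2 fold changes of 1.05 to 1.58. No member fell. Differentially expressed genes (DEGs) here have an adjusted p-value under 0.05 in edgeR's quasi-likelihood test and a log2 fold change past 1 in either direction. By this rule 6 of 31 members (19.4%) were DEGs, all higher, against 1.45% of all 22310 genes tested (0.995% higher). Without the fold threshold 8 members passed (25.8%), against 2.76% of all genes, the other 2 being the receptors Plxna1 and Plxnd1. The members' median log2 fold change was 0.41, against 0.03 over all genes, and 24 of 31 lay above 0 (77.4%, against 51.9%). PT-D and T-ND libraries did not overlap for 16 members (51.6%, against 23.2% of all genes). Summed endothelial markers (10463 to 12262 in T-ND, 13465 to 17442 in PT-D) and podocyte markers (5756 to 8641 and 11622 to 15127) were higher in the same libraries, and their part in these differences was not tested. In bulk kidney RNA more cells of a type and more RNA per cell cannot be told apart. No member was a DEG once T-ND replicate 1, T-ND replicate 4, PT-D replicate 2 or PT-D replicate 3 was left out, while 2 were without T-ND replicate 2, 3 without PT-D replicate 1 and 8 without T-ND replicate 3. Among the libraries whose names do not end in a, 2 in each group, none was a DEG either, with log2 fold changes of these 6 genes of 0.71 (Sema3f) to 1.503 (Sema3e). No share of all genes is given for these refits, so their counts cannot be read as particular to the members.

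Sema3e, the class 3 ligand that binds plexin-D1 without a neuropilin, showed the smallest p-value of the family in this comparison. Sema3e stood at 39.2, 42.9, 42.9 and 38.7 in T-ND, 52.1, 47.5, 83.1 and 39.9 in T-D, 92.8, 39.6 and 31.2 in PT-ND and 136, 120.4 and 114 in PT-D (normalised counts). The T-ND libraries were close together and all 3 PT-D libraries lay above every other library. Sema3e rose in PT-D against T-ND by 1.58 ± 0.22 (log2, SE; adjusted p = 0.0181), and leaving out single libraries gave 1.497 to 1.64. The study had itself picked Sema3e from these libraries for PT-D against T-D, so its direction there is not independent evidence.

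Sema3f and Sema3g, ligands that favour Nrp2, were among the more abundant members. Sema3f stood at 528, 624, 800.3 and 680.4 in T-ND, 708, 976, 919 and 283 in T-D, 727, 629 and 663 in PT-ND and 1677, 1333 and 1110.0 in PT-D (normalised counts). All PT-D values lay above all others, and T-D replicate 4 was the lowest of the 14. For Sema3f the rise over T-ND was 1.05 ± 0.18 (log2, SE; adjusted p = 0.0279). Sema3g stood at 756, 598, 1009.8 and 1156 in T-ND, 1238, 1124, 1396 and 229 in T-D, 1859, 1008 and 983 in PT-ND and 2363, 1941 and 1723 in PT-D (normalised counts). Here PT-ND replicate 1 reached into the PT-D range and T-D replicate 4 was again lowest. Sema3g rose over T-ND by 1.19 ± 0.22 (log2, SE; adjusted p = 0.0304). In the libraries without the name ending a, the difference was 0.71 for Sema3f (adjusted p = 0.122) and 0.75 for Sema3g (adjusted p = 0.103). Over the 8 alternative settings the adjusted p ran from 5.4e-05 to 0.122 for Sema3f and from 0.000123 to 0.118 for Sema3g.

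Of the other 4 class 3 ligands none passed in PT-D against T-ND. Sema3c, which binds either neuropilin, split the T-ND group. Sema3c stood at 615, 680.4, 352 and 307 in T-ND, 412, 418, 332 and 367 in T-D, 349, 308 and 301 in PT-ND and 584, 516 and 639 in PT-D (normalised counts). The 2 T-ND libraries whose names end in a were at the level of PT-D, and the other 2 were near T-D and PT-ND. Its log2 fold change against T-ND was 0.24 ± 0.27 (SE; adjusted p = 0.624), and 0.80 in the libraries without that ending (adjusted p = 0.110). Sema3a, a ligand of Nrp1, was near the detection limit at 1.82 to 52.7 normalised counts, and the highest and the lowest of these were both PT-D libraries. Sema3b (log2 fold change -0.19 ± 0.13) and Sema3d (-0.05 ± 0.25) stayed within their spread.

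Sema3a, Sema3c, Sema3d and Sema3e lie within 5.50 Mb of chromosome 5, and Sema3b and Sema3f lie 0.0722 Mb apart on chromosome 9. Of the 4 neighbours on chromosome 5, Sema3e rose against T-ND and the other 3 did not pass. On chromosome 9, Sema3f rose and Sema3b did not pass.

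Of the 13 membrane ligands of classes 4 to 7, 1 passed in PT-D against T-ND. That was Sema6b, a transmembrane ligand of plexin-A4. Sema6b stood at 68.9, 80.4, 71.2 and 59.1 in T-ND, 86.1, 155, 113 and 63.1 in T-D, 204, 118 and 79.6 in PT-ND and 141, 184 and 188 in PT-D (normalised counts). PT-ND replicate 1 was the highest of all, while the T-ND libraries stayed below every PT-D library. The rise over T-ND was 1.28 ± 0.21 (log2, SE; adjusted p = 0.0245). It averaged 0.844 RPKM over all libraries, among the less abundant members. Sema7a, the ligand anchored by glycosylphosphatidylinositol that binds plexin-C1 and integrins, had the second largest log2 fold change of the family. Sema7a stood at 264, 261, 787 and 404 in T-ND, 696, 658, 764 and 252 in T-D, 781, 651 and 499.6 in PT-ND and 1488, 1271 and 992 in PT-D (normalised counts). PT-D libraries were the highest 3 of all, but T-ND ran from 261 to 787, with both libraries whose names end in a at the low end. The difference was 1.54 ± 0.35 (log2, SE; adjusted p = 0.0506), so it did not pass by a small margin.

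Among class 4 ligands the T-ND values scattered widely for Sema4c, a ligand of plexin-B2. Sema4c stood at 178, 304, 425 and 193 in T-ND, 900.3, 835, 389 and 215 in T-D, 722, 369 and 272 in PT-ND and 612, 504 and 567 in PT-D (normalised counts). PT-D did not overlap with T-ND but lay inside the T-D and PT-ND ranges. Its log2 fold change was 1.02 ± 0.27 (log2, SE; adjusted p = 0.0684). Sema4c shares 16.8% of its exonic length with an antisense gene, D430040D24Rik, whose reads cannot be told apart in unstranded counts. Sema4g, another class 4 ligand, went the other way. Sema4g stood at 1225, 1076, 1331 and 1350.1 in T-ND, 1289.8, 886, 1471 and 804 in T-D, 1617, 1978 and 1445 in PT-ND and 645, 985 and 895 in PT-D (normalised counts). PT-D values lay under all T-ND and PT-ND values and overlapped with T-D. Against T-ND the log2 fold change was -0.57 ± 0.16 (log2, SE; adjusted p = 0.0737). It shares 12.7% of its exonic length with Mrpl43 on the other strand. Sema4a stood at 2354, 2039.5, 2475 and 2569 in T-ND, 2409, 2600.5, 2712 and 2292 in T-D, 3268, 2692 and 3107 in PT-ND and 2039, 2251 and 2547 in PT-D (normalised counts). Sema4a, the most abundant ligand per length on average over all libraries, was highest in PT-ND. In PT-D against T-ND its log2 fold change was -0.06 ± 0.13 (log2, SE; adjusted p = 0.824).

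Sema6a, a ligand of the plexin-A receptors, was narrowly higher in PT-D than in any other library. Sema6a stood at 152, 199, 164 and 169 in T-ND, 122, 194, 144 and 86.2 in T-D, 139.8, 144 and 106 in PT-ND and 223, 201 and 262 in PT-D (normalised counts). Its log2 fold change against T-ND was 0.41 ± 0.18 (log2, SE; adjusted p = 0.194). The remaining membrane ligands, Sema4b, Sema4d, Sema4f, Sema5a, Sema5b, Sema6c and Sema6d, had log2 fold changes of -0.23 (Sema6c) to 0.55 (Sema6d) against T-ND, and none passed. Sema5a differed little between libraries of a group and did not overlap, with 895 to 959 normalised counts in PT-D and 626 to 812 in T-ND (log2 fold change 0.36 ± 0.12, adjusted p = 0.120).

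**Figure D2:**
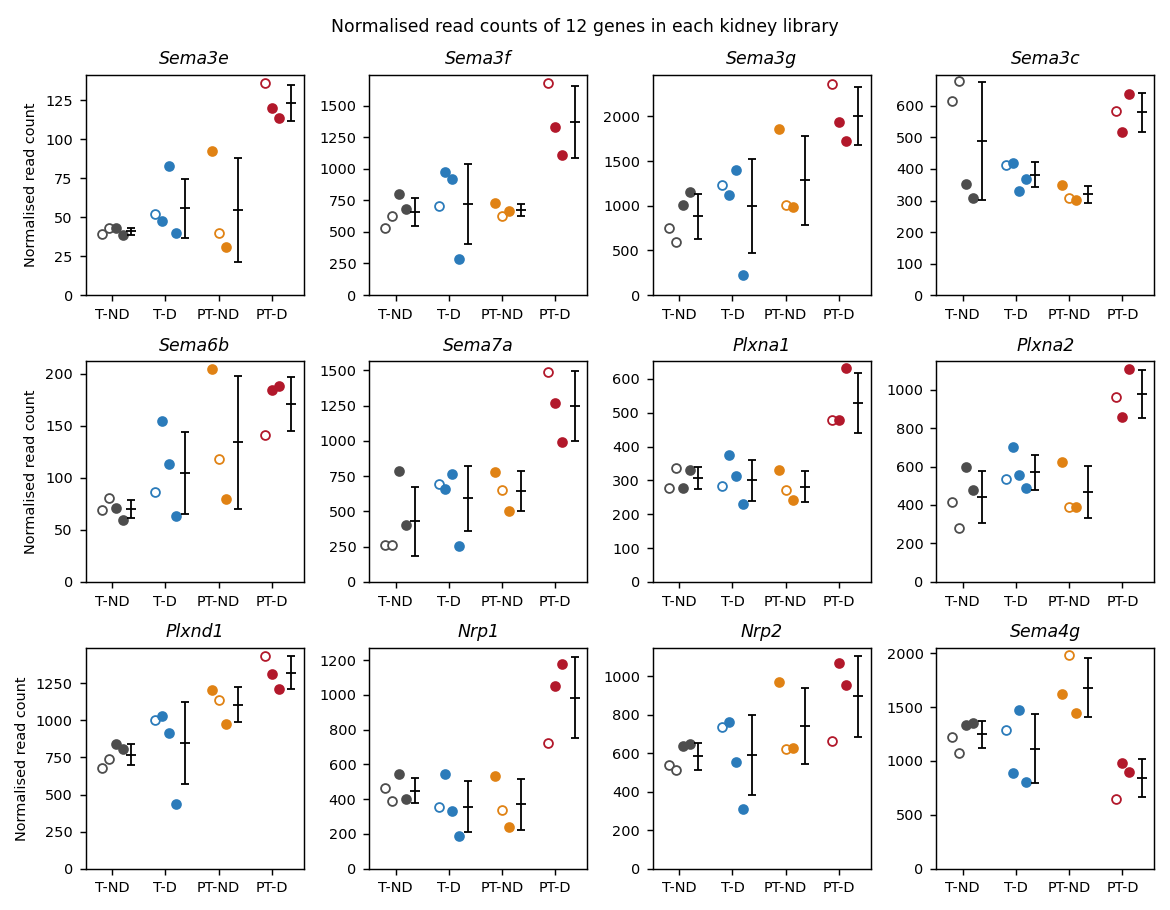
Normalised read counts of 12 members in each library by group, with open circles for libraries whose names end in a and black bars for the group mean ± SD. PT-D libraries lie above all others for Sema3e, Sema3f, Sema7a, Plxna1, Plxna2, Plxnd1 and Nrp1, and T-D replicate 4 is low for Sema3f, Sema3g, Plxnd1, Nrp1 and Nrp2.

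Of the 9 plexin receptors, 3 rose in PT-D against T-ND. Plxna2, which pairs with neuropilins and also binds class 6 semaphorins directly, was the DEG among them. Plxna2 stood at 416, 278, 599 and 476 in T-ND, 536, 699, 555 and 490.4 in T-D, 623, 390.2 and 390.0 in PT-ND and 962, 858 and 1105 in PT-D (normalised counts). All PT-D values lay above all others. Plxna2 rose over T-ND by 1.13 ± 0.22 (log2, SE; adjusted p = 0.0347). It shares 15.4% of its exonic length with the antisense gene Gm6403. Plxna1 stood at 278, 336, 279 and 332 in T-ND, 284, 374, 312 and 229 in T-D, 331, 273 and 241 in PT-ND and 479, 478 and 632 in PT-D (normalised counts). Plxna1, likewise a partner of neuropilins, had tight values in the other groups, and its PT-D libraries stood clear of them. The rise of Plxna1 was 0.78 ± 0.15 (log2, SE; adjusted p = 0.0349). Plxnd1 is the endothelial receptor of Sema3e. Plxnd1 stood at 679.6, 742, 841 and 809 in T-ND, 1001, 1028, 918 and 438 in T-D, 1203, 1138 and 975 in PT-ND and 1436, 1314 and 1213 in PT-D (normalised counts). Its T-ND libraries were the lowest group apart from T-D replicate 4, PT-ND lay between, and the lowest PT-D value was just above the highest PT-ND value. Plxnd1 rose over T-ND by 0.77 ± 0.12 (log2, SE; adjusted p = 0.0235).

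Plxnb1 stood at 528, 487, 676 and 637 in T-ND, 686, 737, 601 and 516 in T-D, 595, 563 and 568 in PT-ND and 867, 759.9 and 1084 in PT-D (normalised counts). Plxnb1, the receptor of Sema4d, was higher in every PT-D library than elsewhere. Its log2 fold change against T-ND was 0.63 ± 0.16 (log2, SE; adjusted p = 0.0629). Plxnb2 stood at 3895, 3554, 4959 and 4821 in T-ND, 4506, 4749, 4374 and 3533 in T-D, 3735, 4038 and 4091 in PT-ND and 4613, 5032 and 6299 in PT-D (normalised counts). For Plxnb2 the PT-D range overlapped with T-ND. Plxnb2 gave a log2 fold change of 0.30 ± 0.16 (log2, SE; adjusted p = 0.292). The other receptors, Plxna3, Plxna4, Plxnb3 and Plxnc1, had log2 fold changes of -0.14 (Plxnc1) to 0.64 (Plxna4), and none passed.

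Both neuropilins lay above T-ND in all PT-D libraries, and Nrp1 passed the test. Nrp1 stood at 463, 387, 543 and 399.9 in T-ND, 358, 546, 332 and 188 in T-D, 532, 336 and 241 in PT-ND and 724, 1052 and 1175 in PT-D (normalised counts). All 3 PT-D values lay above all others. Nrp1 rose over T-ND by 1.13 ± 0.18 (log2, SE; adjusted p = 0.0235). Nrp2 stood at 537, 513, 636 and 647 in T-ND, 738, 762, 557 and 313 in T-D, 969, 623 and 629 in PT-ND and 663, 1071 and 953 in PT-D (normalised counts). For Nrp2 the PT-D range overlapped with PT-ND and T-D and not with T-ND. Its log2 fold change was 0.61 ± 0.17 (log2, SE; adjusted p = 0.0735). Across the family, 10 of 31 members (32.3%) had all 3 PT-D libraries above the other 11, a count made after the values were seen, against 5.10% of all 22339 genes. None had all PT-D libraries below the others, against 5.37% of all genes.

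Promoter sequence was looked at because ligands and receptors rose together in PT-D against T-ND. In the 250 bases before the canonical start site, the GC box GGGCGG (either strand, so also CCGCCC) stood in 23 of 31 members (74.2%), against 36.3% of 21770 promoters. The members' median GC content was 61.2%, against 53.2% over all promoters. The TATA box letters TATAAA stood in 1 member (3.23%, against 11.9%), the hypoxia response core ACGTG in 3 (9.68%, against 17.0%) and the ETS core CCGGAA in 3 (9.68%, against 12.4%), each on either strand. A match describes these letters only. Shown are 4 of the windows of members with an adjusted p under 0.05 in PT-D against T-ND whose window lies outside all annotated transcripts of the gene, 5′ to 3′ on the gene's strand in GRCm39, with GC boxes in capitals. They are chr5:14075040-14075289 (plus strand) for Sema3e, chr9:107587675-107587924 (minus) for Sema3f, chr14:30939558-30939807 (plus) for Sema3g and chr6:115972287-115972536 (minus) for Plxnd1.
Sema3e: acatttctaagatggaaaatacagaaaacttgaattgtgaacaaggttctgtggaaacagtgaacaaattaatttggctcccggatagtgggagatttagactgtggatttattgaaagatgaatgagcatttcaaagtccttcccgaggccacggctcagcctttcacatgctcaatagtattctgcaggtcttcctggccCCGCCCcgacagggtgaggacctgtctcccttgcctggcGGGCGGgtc
Sema3f: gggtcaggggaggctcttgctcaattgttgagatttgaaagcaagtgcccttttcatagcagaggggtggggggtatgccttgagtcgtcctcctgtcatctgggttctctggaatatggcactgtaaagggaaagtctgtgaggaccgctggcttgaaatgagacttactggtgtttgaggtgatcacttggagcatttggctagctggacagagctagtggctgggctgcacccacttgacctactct
Sema3g: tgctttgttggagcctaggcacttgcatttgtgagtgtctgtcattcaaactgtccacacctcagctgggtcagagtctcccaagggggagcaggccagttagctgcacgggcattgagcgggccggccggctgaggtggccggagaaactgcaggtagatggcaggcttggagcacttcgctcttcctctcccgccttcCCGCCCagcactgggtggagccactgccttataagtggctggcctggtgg
Plxnd1: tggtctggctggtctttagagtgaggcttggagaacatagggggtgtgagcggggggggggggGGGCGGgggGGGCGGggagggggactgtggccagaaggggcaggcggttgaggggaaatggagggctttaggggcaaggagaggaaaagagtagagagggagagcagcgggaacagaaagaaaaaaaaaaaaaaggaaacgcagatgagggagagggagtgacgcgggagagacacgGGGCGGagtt
Sema3e carried 2 GC boxes, Sema3g 1 and Plxnd1 3, and in Sema3f none of the 4 motifs was found. GC content in these 4 windows ran from 48% (Sema3e) to 60.8% (Sema3g and Plxnd1).

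In PT-D against T-D, which asks about preterm birth among diabetic mice and shares the PT-D libraries with the comparison above, no member was a DEG in edgeR, where 0.193% of all 22294 genes were. At an unadjusted p under 0.05 stood 13 members (41.9%, against 22.3% of all genes), and DESeq2 called 3 (2.94% of all genes). The members' median log2 fold change was 0.59, against 0.06 over all genes, and 13 members did not overlap between the groups (23% of all genes). Nrp1 had the smallest p, with a log2 fold change of 1.46 ± 0.29 (log2, SE; adjusted p = 0.0664). For Sema3e it was 1.13 ± 0.31 (log2, SE; adjusted p = 0.0899). For Sema7a it was 1.07 ± 0.31 (log2, SE; adjusted p = 0.0935). These 3 were the genes that DESeq2 called. Without T-D replicate 2 or T-D replicate 4, 1 member (Nrp1) was a DEG. Without T-D replicate 4 the log2 fold change of Nrp1 was 1.26 (adjusted p = 0.0406), that of Sema3g went from 1.01 to 0.68 and that of Sema3f from 0.93 to 0.66.

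**Figure D3:**
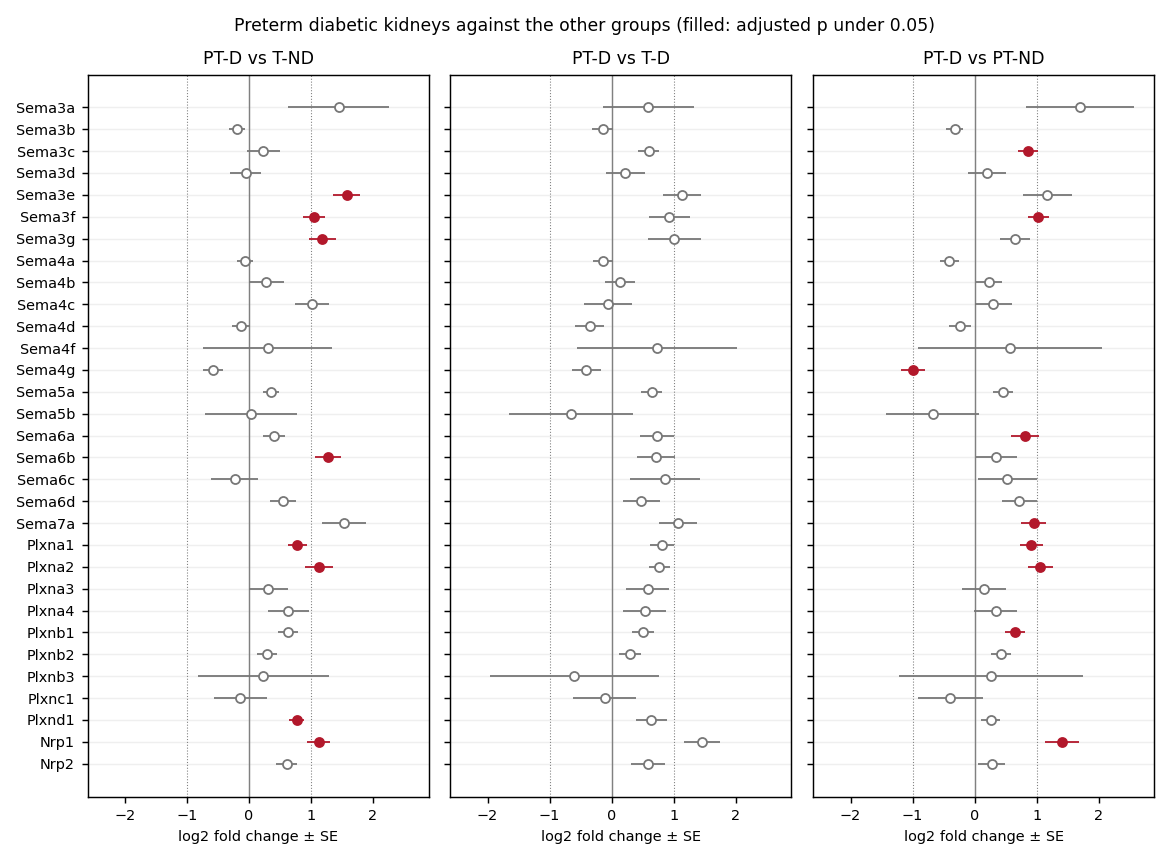
Log2 fold change ± SE of the 31 members in PT-D against T-ND, T-D and PT-ND, which share the PT-D libraries, with filled red points for an adjusted p under 0.05 and dotted lines at -1 and 1. Filled points number 8 against T-ND, 0 against T-D and 9 against PT-ND, of which Sema4g alone lies below 0.

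In T-D against T-ND, the difference with STZ among term mice, no member was a DEG in edgeR or DESeq2, where 0.0673% and 1.32% of all 22275 genes were. The members' median log2 fold change was 0.07, and no member's groups were free of overlap (6.66% of all genes). At an unadjusted p under 0.05 stood 2 members (6.45%, against 11.8%). Sema4c had the smallest p, with a log2 fold change of 1.07 ± 0.42 (log2, SE; adjusted p = 0.362). Its T-D values spread from 215 to 900 normalised counts and overlapped with T-ND. Sema6c, a membrane ligand at few counts, gave -1.09 ± 0.49 (log2, SE; adjusted p = 0.415). Nrp1 was at 448 ± 71.2 (SD, n = 4) normalised counts in T-ND and 356 ± 147 (n = 4) in T-D.

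In PT-D against PT-ND, the difference with STZ among preterm mice, members rose and 1 fell. Nrp1, Plxna2 and Sema3f were DEGs (3 of 31, 9.68%, against 4.95% of all 22303 genes). An adjusted p under 0.05 was reached by 9 members (29.03%), against 12.9% of all genes, so the background was also high. Of these 8 were higher (25.8%, against 7.14%) and Sema4g alone was lower (5.78% of all genes were). DESeq2 called 5 members (6.1% of all genes). The rise of Nrp1 was 1.41 ± 0.27 (log2, SE; adjusted p = 0.0111). That of Plxna2 was 1.06 ± 0.20 (log2, SE; adjusted p = 0.0107). That of Sema3f was 1.03 ± 0.17 (log2, SE; adjusted p = 0.00698). The other 5 that rose were Sema3c (0.86 ± 0.16), Plxna1 (0.91 ± 0.19), Sema7a (0.96 ± 0.20), Plxnb1 (0.65 ± 0.16) and Sema6a (0.81 ± 0.22), on the log2 scale with SE and with adjusted p of 0.00900 (Sema3c) to 0.0378 (Sema6a). Sema4g fell, with a log2 fold change of -0.997 ± 0.19 (log2, SE; adjusted p = 0.0103). Its means were 841 ± 176 (SD, n = 3) normalised counts in PT-D and 1680 ± 272 (n = 3) in PT-ND, and the 2 groups did not overlap. Sema3e did not pass here, at 1.17 ± 0.39 (log2, SE; adjusted p = 0.0748). PT-ND replicate 1, at 92.8 normalised counts of Sema3e, stood well above the other 2 PT-ND libraries. Without it 8 members were DEGs, and without PT-ND replicate 2 only 1. Among the libraries whose names do not end in a, Nrp1 alone of the 9 kept an adjusted p under 0.05 (0.0235). The other 2 DEGs, Sema3f and Plxna2, stood at 0.0525 and 0.0599 there.

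In PT-ND against T-ND, preterm birth without STZ, no member was a DEG in edgeR or DESeq2, where 0.0809% and 0.759% of all 22254 genes were. At an unadjusted p under 0.05 stood 5 members (16.1%, against 10.7% of all genes), and 5 did not overlap between the groups (16.1%, against 11% of all genes). Plxnd1 had the smallest p, with a log2 fold change of 0.53 ± 0.13 (log2, SE; adjusted p = 0.243). Its means were 1105 ± 117 (SD, n = 3) normalised counts in PT-ND and 768 ± 72.0 (n = 4) in T-ND, without overlap. Sema6b (0.94 ± 0.31), Sema4g (0.43 ± 0.15), Sema4a (0.36 ± 0.13) and Sema3c (-0.61 ± 0.27) were the other 4.

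The difference with STZ was larger in preterm than in term mice for 3 members, as tested by the interaction of preterm birth and STZ over all 14 libraries. Nrp1 and Sema3c were DEGs (2 of 31, 6.45%, against 4.45% of all 22339 genes), and Plxna1 passed without the fold threshold (3 of 31, 9.68%, against 6.23%). For Nrp1 the log2 fold change with STZ was -0.35 ± 0.27 in term and 1.41 ± 0.27 in preterm mice, and the interaction was 1.74 ± 0.43 (log2, SE; adjusted p = 0.0336). For Sema3c the values were -0.37 ± 0.24 and 0.86 ± 0.16, and the interaction was 1.22 ± 0.33 (log2, SE; adjusted p = 0.0423). Plxna1 showed -0.05 ± 0.18 and 0.91 ± 0.19, with an interaction of 0.94 ± 0.26 (log2, SE; adjusted p = 0.0452). The call of Sema3c moves with the T-ND libraries whose names end in a: in the libraries without that ending its interaction was 0.65 (adjusted p = 0.242), against 1.93 for Nrp1 (adjusted p = 0.110) and 0.96 for Plxna1 (adjusted p = 0.178). With the ending as a covariate 1 member (Nrp1) was a DEG in the interaction. What the ending stands for, and so its part in the values, cannot be told from the labels. Over 7 alternative settings the adjusted p ran from 0.00333 to 0.110 for Nrp1, 0.0107 to 0.242 for Sema3c and 0.0109 to 0.178 for Plxna1. No member was a DEG without T-ND replicate 1, T-D replicate 3, PT-ND replicate 2, PT-ND replicate 3, PT-D replicate 2 or PT-D replicate 3, 4 were without T-D replicate 2, and 1 was without T-ND replicate 2, T-ND replicate 3, T-ND replicate 4, T-D replicate 4 or PT-D replicate 1. Sema6a (interaction 1.14 ± 0.34, adjusted p = 0.0574) and Sema5a (0.74 ± 0.23, adjusted p = 0.0610) did not pass.

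**Figure D4:**
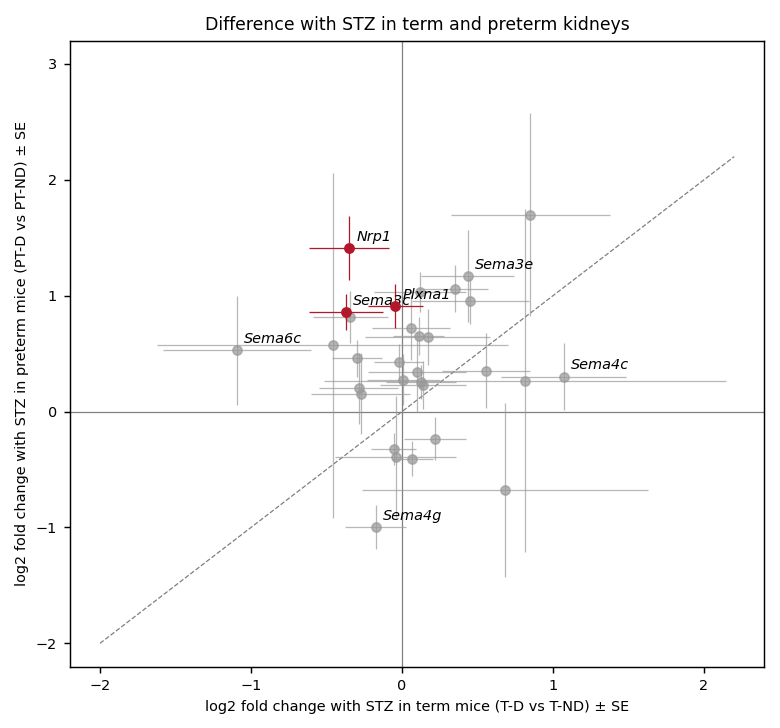
Log2 fold change ± SE with STZ in term mice (T-D against T-ND, horizontal axis) and in preterm mice (PT-D against PT-ND, vertical axis) for the 31 members, with the line of equal change dashed and members with an interaction at an adjusted p under 0.05 in red. Nrp1, Sema3c and Plxna1 lie above the line, below 0 in term mice and at 0.86 to 1.41 in preterm mice.

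Among genes that work with this family, VEGF receptors that pair with neuropilins also passed. In PT-D against T-ND 1 of 8 VEGF ligands and receptors passed, as did 2.76% of all genes. This was Flt4, the lymphatic and endothelial VEGF receptor, which rose by 1.35 ± 0.20 (log2, SE; adjusted p = 0.0203). In PT-D against PT-ND 4 of 8 passed, 3 of them higher, against 12.9% of all genes (7.14% higher). Flt4 rose by 1.68 ± 0.21 (log2, SE; adjusted p = 0.00249). Kdr, the main signalling VEGF receptor, rose by 1.15 ± 0.27 (log2, SE; adjusted p = 0.0208). Flt1, a VEGF receptor that also acts as a decoy, rose by 1.18 ± 0.29 (log2, SE; adjusted p = 0.0268). The ligand Vegfb fell (-0.59 ± 0.17, adjusted p = 0.0419). In the interaction 2 of 8 passed, against 6.23% of all genes: Flt4 (1.94 ± 0.39, adjusted p = 0.0218) and Kdr (1.83 ± 0.47, adjusted p = 0.0375). Among 13 other co-receptors and binding partners, none passed in the 5 comparisons of groups, and Erbb2, a receptor tyrosine kinase that associates with plexin-B, passed in the interaction (1.25 ± 0.32, adjusted p = 0.0360).

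Of 39 downstream effectors, 4 rose in PT-D against T-ND and none fell, where 2.76% of all genes passed. The smallest p belonged to Rnd3 (1.21 ± 0.14, adjusted p = 0.00815), a GTPase that stays bound to GTP, followed by the kinase Rock2 (0.78 ± 0.15, adjusted p = 0.0333) and the plexin-A-bound tyrosine kinase Fes (0.94 ± 0.19, adjusted p = 0.0375). In PT-D against PT-ND, 10 effectors rose and 2 fell, where 7.14% of all genes rose and 5.78% fell. The smallest p-values were those of Rock2 (1.09 ± 0.17, adjusted p = 0.00497), Fes (1.31 ± 0.23, adjusted p = 0.00807) and Dpysl3 (1.21 ± 0.24, adjusted p = 0.0124), a collapsin response mediator. In the interaction 3 effectors were higher and 2 lower, where 6.23% of all genes passed. The smallest p-values there belonged to the GTPase Rnd1 (-3.12 ± 0.55, adjusted p = 0.0142), Rock2 (1.22 ± 0.27, adjusted p = 0.0262) and the kinase Cdk5 (-1.11 ± 0.27, adjusted p = 0.0341). Of 7 proteases that cut semaphorins or plexins, Mmp14 rose in PT-D against T-ND (0.90 ± 0.16, adjusted p = 0.0296), and Adam17 (0.72 ± 0.14, adjusted p = 0.0106) and Pcsk5 (0.85 ± 0.21, adjusted p = 0.0266) rose in PT-D against PT-ND, to be read against the same shares of all genes. Adam17 also passed in the interaction (0.75 ± 0.19, adjusted p = 0.0385). No gene of these 4 lists passed in PT-D against T-D, T-D against T-ND or PT-ND against T-ND.

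Markers of several kidney cell types moved with these genes. Besides the T-ND and PT-D sums given above, the summed normalised counts of 12 endothelial markers, none of them at 0 in any library, were 6874 to 12680 in T-D and 9618 to 14687 in PT-ND. The 8 podocyte markers, likewise never at 0, summed to 4076 to 11789 in T-D and 6616 to 11603 in PT-ND. The lowest endothelial and podocyte sums were those of T-D replicate 4, which was also lowest for Sema3f, Sema3g, Plxnd1 and Nrp1. In PT-D against T-ND 2 of 12 endothelial and 6 of 8 podocyte markers passed, all higher. So did 1 of 9 stromal and mural and 1 of 10 leukocyte markers. Of 7 loop and distal tubule markers 1 passed, lower, where 2.76% of all genes passed. In PT-D against PT-ND 5 of 8 podocyte, 3 of 9 stromal and mural and 2 of 12 endothelial markers passed, all higher. So did 2 of 10 leukocyte and 1 of 5 lymphatic endothelial markers. Of 8 collecting duct markers 1 was higher and 1 lower, where 12.9% of all genes passed. The stromal and mural sums were 3030 to 3575 in T-ND and 4568 to 6107 in PT-D. The part of the stromal and mural cells was not tested either. Urothelial markers lay the other way, and the 6 of them, none at 0 in any library, summed to 796 to 1773 in T-ND, 796 to 1756 in T-D, 171 to 1468 in PT-ND and 68.4 to 666 in PT-D. These sums did not overlap between T-ND and PT-D, and the 6 log2 fold changes were -2.42 to -1.23, though none passed. The part of the urothelium in the members' differences was not tested. The 8 collecting duct markers summed to 15049 to 24290 in T-ND and 8001 to 18741 in PT-D, with Avpr2 at 0 in 10 of 14 libraries. The adrenal genes Cyp11b1 and Cyp11b2 were at 0 in all 14 libraries.

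**Figure D5:**
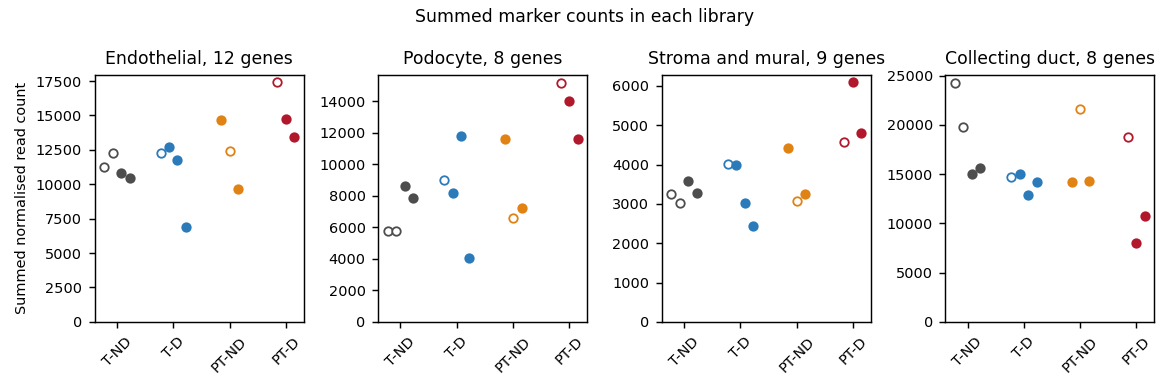
Summed normalised read counts of endothelial, podocyte, stromal and mural, and collecting duct markers in each library by group, with open circles for libraries whose names end in a. Endothelial and podocyte sums of PT-D reach 17442 and 15127, above the T-ND libraries, and T-D replicate 4 is the lowest library in both panels.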

How the data were processed

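Messenger RNA of 14 whole kidneys was sequenced without strand information. The authors aligned the reads with STAR to GRCm39, with GENCODE M36 named in the study's methods, and deposited raw read counts per gene and library. The unstranded column was used here, and groups and replicate numbers came from the sample labels. Symbols, exon lengths and start sites came from GENCODE M39, matched on gene IDs without version (56236 of 56980 matched, the 31 members included).

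Genes with 10 counts or fewer over all libraries were dropped, leaving 22339. Pairwise fits used the libraries of the groups compared and the interaction all 14 (edgeR 4.0.16 in R 4.3.3; TMM, glmQLFit, glmQLFTest, two-sided), with Benjamini-Hochberg adjustment over all genes tested. SE is the log2 fold change divided by the root of F. On simulated counts with 200 changed genes at a log2 change of 2, the fit recovered 98 to 100% of them, with 0 to 5 false calls. The simulation gave all genes the same spread and left out genes at few counts. As 2 is above every log2 fold change of the members in the main fits, this recovery does not show how many smaller changes were missed. Levels per length used TMM-scaled counts.

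Alternatives were DESeq2 1.42.0, other scaling and filters, a joint fit, the replicate number as a block, the ending of the library name, and leaving out each library. Per-library values are given for members with an adjusted p under 0.05 in any comparison, the smallest p of each comparison, members separated from T-ND or T-D by over 1 on the log2 scale, and the 3 highest levels. Of each pathway list up to 3 genes per comparison are named. The members and lists were chosen with earlier results of these data known. Nothing in the labels says how animals were related, so p-values measure the spread between these libraries. A promoter window that also met the rule for the sequences shown is not reported here.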

Additional observations from a re-analysis of the deposited data

Results flagged for a closer look

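The difference with STZ was not the same in preterm and term mice for 3 of 31 members (9.68%, against 6.23% of all genes). This was by edgeR's test of the interaction over 14 libraries. Its log2 value was 1.74 for Nrp1 (SE 0.43, adjusted p = 0.0336), 1.22 for Sema3c (SE 0.33, adjusted p = 0.0423) and 0.941 for Plxna1 (SE 0.26, adjusted p = 0.0452). Nrp1 was higher in all 3 PT-D libraries than in all 3 PT-ND libraries, and so were Sema3c and Plxna1, while T-D and T-ND overlapped for each of the 3 genes. Dixon's test, which sets the gap between the highest or lowest library and its neighbour against the range of the group, was past its critical value in 0 of 62 sets of 4 libraries (31 members in T-ND and in T-D). With 4 libraries it passes over wide gaps, such as that of T-D replicate 4 for Sema3g (1238, 1124, 1396 and 229 normalised counts), so it does not show that no library stood apart. Groups of 3 were not looked at.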

How the results depend on the processing

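No member that passed a test changed direction under any alternative. The members' median log2 fold changes in T-D against T-ND (0.07) and PT-ND against T-ND (0.08) lay near 0 and fell below it among libraries whose names do not end in a (-0.05 and -0.01), without T-D replicate 1 or 2 (-0.03 and -0.05) and without PT-ND replicate 1 (-0.07). In PT-D against T-ND, 6 members were DEGs, and 1 was with the replicate block and 0 among libraries whose names do not end in a; leaving out single libraries gave 0 to 8. In PT-D against T-D, 0 members became 3 in DESeq2, 4 without a filter on low counts, 1 with all 14 libraries in one fit and 1 with the replicate block, and single libraries left out gave 0 to 1. In PT-D against PT-ND, 3 became 5 in DESeq2, 5 with the replicate block, 9 without the fold threshold and 1 among libraries without the ending a, and 1 to 8 with a library left out. For the interaction, 2 became 1 with the replicate block, 1 with the ending of the library name as a covariate, 0 without the libraries that carry it, and 0 to 4 with a library left out. T-D against T-ND and PT-ND against T-ND stayed at 0 throughout. Shares of all genes are given above for DESeq2 and for no fold threshold. They are not given for the other settings or for libraries left out, so those counts cannot be read as particular to the members. The 63 gene results with an unadjusted p under 0.05, most of them not DEGs in the main fit, had 997 further values. Of these, 882 kept their status by the DEG rule, 41 became DEGs and 74 ceased to be. As most results began outside the rule, the 882 do not show that the DEG calls were stable. The cause of these shifts was not tested; where a group keeps 2 libraries, its spread is estimated with the other group's. Libraries of the same replicate number did not deviate together in the median (correlation over 19 pairs -0.11, against 0.0168 over 54 other pairs). The highest values were 0.305 among the same-number pairs and 0.284 among the others. Deviations from the means of so few libraries cannot exclude that the numbers pair mice.

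Depth limited Plxnb3, Sema4f, Sema5b and Sema3a, whose counts were at or near 0 in some libraries. Groups of 3 and 4 mice leave wide errors, and whole-kidney RNA does not separate cell types.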
